A study of Mus musculus with 19 samples.

Results

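Cyclins are the regulatory subunits of the cyclin-dependent kinases (CDKs), and most of them are made and destroyed at set points of the cell cycle. The D-type cyclins bind CDK4 and CDK6 in G1 and link growth signals to the cycle, the E-type cyclins bind CDK2 at the start of DNA synthesis, cyclin A2 acts in S and G2, and the B-type cyclins drive CDK1 into mitosis. Crypts of the small intestine hold the stem cells and dividing progenitors of the epithelium, so the mitotic cyclins are transcribed there and little on the villus. The genes described here are 10 cyclins, matched by symbol to 1 Ensembl gene each among the 55487 genes of the files: the D-type cyclins Ccnd1, Ccnd2 and Ccnd3, the E-type cyclins Ccne1 and Ccne2, Ccna2, the B-type cyclins Ccnb1 and Ccnb2, Ccnf, and Ccng2. All 10 passed the filter for low counts and were tested. They were listed by function, with earlier results of these mice known.

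The 19 libraries each hold the small intestinal crypt RNA of 1 C57BL/6 mouse, and the mice were of both sexes and adult age. Wild-type mice (Nt+/+) and mice lacking the gene for neurotensin (Nt-/-), a gut peptide hormone that is released after a meal, were fed standard chow ad libitum (5 Nt+/+ and 4 Nt-/- mice) or fasted for 48 hours (5 and 5 mice). The Nt-/- mice lack the gene in every tissue, and the crypts came from the larger, proximal part of the small intestine after EDTA treatment. The study describes its fed and fasted mice of both genotypes as carrying a reporter in the stem cell gene Lgr5 (Lgr5-EGFP-IRES-CreERT2), an allele that the labels of these libraries do not name. The study asked whether neurotensin affects crypt cell proliferation in fed and fasted mice, and the 4 groups allow fasting to be compared within each genotype and the genotypes within each diet.

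The counts per mouse summed to between 9059418 and 35068669 (median, 18541770). Nts, the neurotensin transcript, was between 4.98 and 8.59 CPM (counts scaled to a common library total) in the 10 libraries titled Nt+/+ and between 0.144 and 0.793 CPM in the 9 titled Nt-/-. Replicate 5 of the fasted Nt+/+ group has a genotype label of Nt-/- that conflicts with its title; its Nts level was 5.43 CPM, and it was grouped by its title. Replicate 1 of the ad libitum–fed Nt+/+ group had 11.5% of its counts on 1 gene, CT010467.1, against at most 2.94% on any gene elsewhere. The 6 epithelial markers (Epcam, Cdh1, Krt8, Krt18, Krt19, Vil1) were abundant in every mouse, with a summed level between 5528.9 and 7612.5 CPM. The 8 stromal and muscle markers summed to at most 9.37 CPM and the 3 endothelial markers to at most 2.45 CPM. The 10 immune markers summed to between 57.1 and 155 CPM.

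Read per length, as RSEM's TPM (transcript abundance scaled for length and for the total of the library), Ccnd2 was the most abundant of the 10 in every group. In crypts of ad libitum–fed Nt+/+ mice its level was 107 ± 17.8 TPM (SD, n = 5), and the next were Ccna2 at 62.0 ± 3.87 TPM and Ccnd1 at 58.7 ± 6.62 TPM, whose ranges overlapped. Ccnb1 followed at 45.5 ± 2.03 TPM and Ccnb2 at 40.4 ± 2.94 TPM, again with overlapping ranges. Ccng2 (22.7 ± 7.17 TPM) and Ccnf (22.2 ± 1.39 TPM) could not be ordered. The lowest 3 were Ccnd3 at 14.0 ± 0.334 TPM, Ccne2 at 10.5 ± 2.19 TPM and Ccne1 at 6.30 ± 0.668 TPM, of which Ccnd3 and Ccne2 overlapped. In fasted mice the order below Ccnd2 and Ccna2 was different. Ccnd1 stood below both B-type cyclins in fasted Nt+/+ mice at 29.5 ± 5.22 TPM and in fasted Nt-/- mice at 24.2 ± 4.02 TPM, while Ccng2 stood next below Ccna2 in fasted Nt-/- mice at 37.5 ± 10.8 TPM. In both fasted groups, all neighbors from rank 2 to rank 8 overlapped in range.

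Transcript levels of 5 cyclins of G1 and S phase were lower in fasted than in fed mice of both genotypes, and those of Ccnd2, the most abundant D-type cyclin, were not. In Nt+/+ mice, Ccnd1, Ccnd3, Ccne1, Ccne2 and Ccna2 fell, 5 of the 10 members, where 10.4% of the 17875 genes tested fell; none rose, where 11.2% of all genes rose. In Nt-/- mice the same 5 fell together with Ccnb1, 6 of 10 against 12.6% of all genes, and Ccng2 rose, 1 of 10 against 12.5% of all genes. The median log2 fold change of the 10 was -0.34 in Nt+/+ and -0.46 in Nt-/- mice, beside -0.009 and -0.022 over all genes tested. These are calls of edgeR's quasi-likelihood test at a Benjamini-Hochberg adjusted p under 0.05, as are all those below. In bulk crypt RNA, fewer cells of a type and less RNA per cell cannot be told apart.

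**Figure D1:**
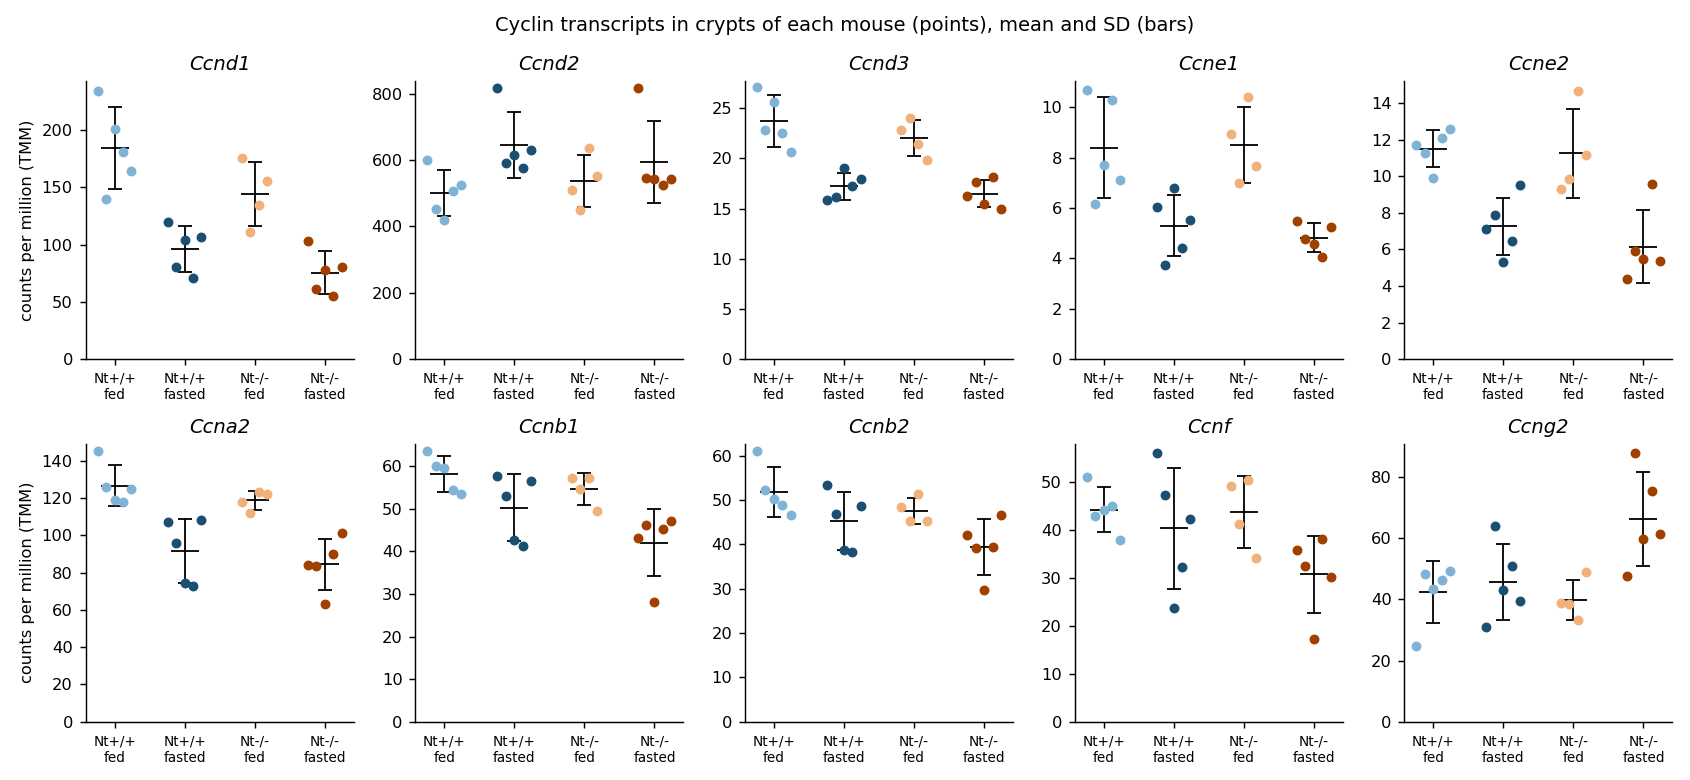
CPM (y axis, linear from 0) of the 10 cyclins in each of the 19 mice, by genotype and diet (x axis), with the mean and SD of each group. Ccnd1 lay between 55.2 and 120 CPM in the fasted mice and between 111 and 234 CPM in the fed ones, and Ccnd2 shows no such fall.

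Ccnd1, which encodes cyclin D1, a target of mitogen and Wnt signaling, had the lowest fasted-to-fed ratio of the 10 cyclins. Its level in ad libitum–fed Nt+/+ mice was 234, 140, 201, 181 and 164 CPM, and in fasted Nt+/+ mice 120, 80.3, 104, 70.9 and 107 CPM. Every fasted wild-type mouse was thus below every fed one. Its Nt-/- values were 176, 111, 135 and 156 CPM when fed and 103, 61.0, 78.0, 55.2 and 80.7 CPM when fasted, and these groups did not overlap either. The log2 fold change was -0.93 ± 0.18 (SE, adjusted p = 0.000906, edgeR) in Nt+/+ and -0.93 ± 0.19 (adjusted p = 0.00113) in Nt-/- mice, 0.524 times the fed level in each. In all 4 groups, replicate 1 had the highest Ccnd1 level in CPM. In TPM, replicate 4 of the fed Nt-/- mice was higher than replicate 1 (54.4 against 49.8 TPM).

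Ccnd3, the D-type cyclin best known from lymphocytes, had a smaller fall. It ranged from 20.6 to 27.1 CPM in fed Nt+/+ mice and from 15.8 to 19 CPM in fasted ones, with no overlap, and the log2 fold change was -0.46 ± 0.09 (adjusted p = 0.00100). Among Nt-/- mice it ranged from 19.8 to 24.0 CPM when fed and from 15.0 to 18.1 CPM when fasted (log2 fold change, -0.42 ± 0.09, adjusted p = 0.00258).

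Ccnd2, the remaining D-type cyclin, did not fall. In Nt+/+ mice it was 602, 454, 419, 507 and 525 CPM when fed and 819, 591, 616, 576 and 630 CPM when fasted. The fasted values lay mostly above the fed ones, with 1 fed mouse, replicate 1, inside the fasted range. The log2 fold change was 0.37 ± 0.14 (95% interval, 0.10 to 0.63, adjusted p = 0.0628) and did not pass the test. With a replicate block by title number, which pairs these mice, it was 0.36 (adjusted p = 0.0207), a rise, and 6 of 10 members then passed the test. It also passed with DESeq2 (adjusted p = 0.0441), with upper quartile normalization (0.0400), when genes needed 10 counts in each mouse (0.0448), with only the groups compared in the fit (0.0473), with a block by file number (0.0128), and without replicate 1 of the fed Nt+/+ group (0.44, adjusted p = 0.0362) or of the fasted Nt-/- group (0.37, adjusted p = 0.0261). In the remaining 20 of 28 alternatives the Ccnd2 difference in Nt+/+ mice did not pass, and it was as low as 0.27 with 1 mouse left out. For Nt-/- mice the fed values of 509, 450, 637 and 553 CPM overlapped the fasted values of 817, 547, 544, 524 and 543 CPM. The log2 fold change there was 0.15 ± 0.15 (adjusted p = 0.506), and 0.01 to 0.24 with 1 mouse left out. Replicate 1, at 819 and 817 CPM, stood well above the rest of each fasted group.

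**Figure D2:**
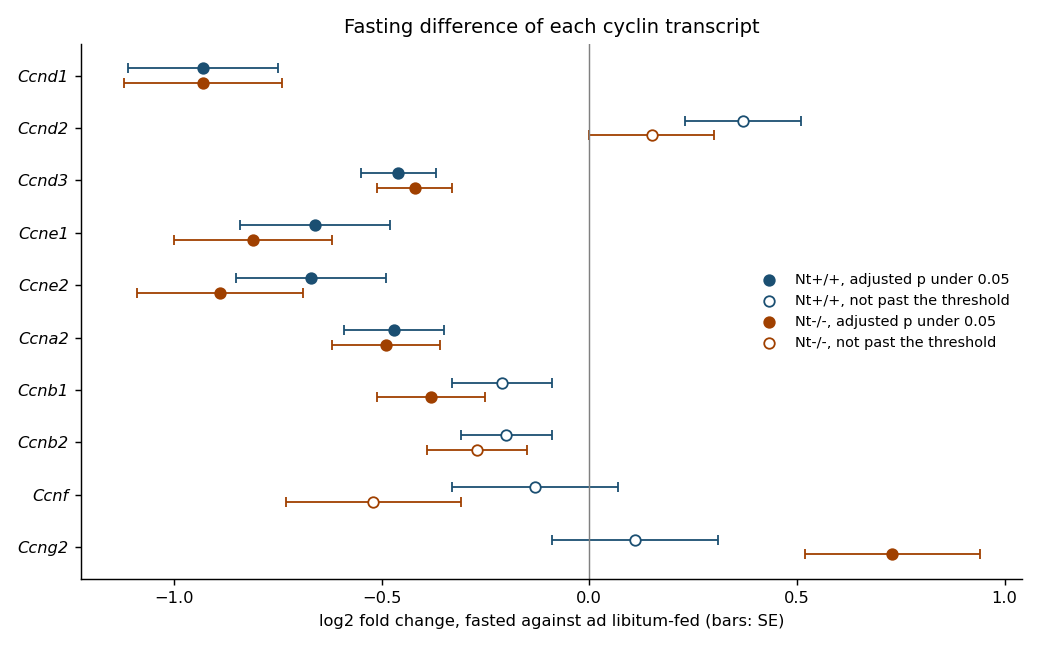
Log2 fold change of fasted against ad libitum–fed mice (x axis) for each cyclin (y axis) in Nt+/+ and Nt-/- mice, with SE bars. Filled points passed an adjusted p of 0.05: Ccnd1, Ccnd3, Ccne1, Ccne2 and Ccna2 lie left of 0 in both genotypes, and Ccnb1 and Ccng2 are filled in Nt-/- mice.

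The make-up of the D-type transcripts differed between fed and fasted crypts. Summed TPM of the 3 genes were 180 ± 18.9 in fed and 177 ± 22.8 in fasted Nt+/+ mice, and 169 ± 20.9 and 155 ± 20.1 in Nt-/- mice. Ccnd1 made up 34.6%, 29.6%, 39.9%, 30.9% and 29.1% of that sum in the fed Nt+/+ mice and 17.4%, 15.8%, 17.9%, 13.1% and 19.3% in the fasted ones. Its mean share was thus 32.8% ± 4.51 (SD) in fed and 16.7% ± 2.38 in fasted crypts, a difference of -16.1 percentage points (exact permutation test, two-sided, p = 0.00794, the smallest that 5 against 5 mice allow, adjusted p = 0.0317 over 20 tests of 5 shares in 4 comparisons). The Ccnd1 share of Nt-/- mice was 27.3% ± 4.11 (n = 4) when fed and 15.6% ± 1.42 (n = 5) when fasted (exact permutation p = 0.00794, adjusted p = 0.0317). The groups did not overlap in either genotype.

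The Ccnd2 share was the larger one, 59.3% ± 4.94 in fed and 77.4% ± 2.46 in fasted Nt+/+ mice and 65.0% ± 4.63 and 77.6% ± 0.939 in Nt-/- mice (both exact permutation p = 0.00794, adjusted p = 0.0317). The 3 shares make up the whole D-type sum of a mouse, so the Ccnd2 share must be higher where the others together are lower. Tests of these shares are therefore not separate results. The Ccnd3 share was 7.86% ± 0.763 in fed and 5.88% ± 0.871 in fasted Nt+/+ mice (exact permutation p = 0.00794, adjusted p = 0.0317). The Nt-/- means were 7.69% ± 1.55 and 6.75% ± 1.31 (exact permutation p = 0.357, adjusted p = 0.595). These 5 calls held without any 1 Nt+/+ mouse. Without any 1 of the 9 Nt-/- mice, replicates 1 to 4 of the fed or 1 to 5 of the fasted group, none of the 5 passed (adjusted p, 0.0529 for the 3 in Nt+/+ mice and 0.0714 to 0.114 for the 2 in Nt-/- mice), since the tests are adjusted together and fewer mice raise the smallest p. Within pairs of the same replicate number, the Ccnd1 share was lower in the fasted mouse in 5 of 5 Nt+/+ pairs and 4 of 4 Nt-/- pairs. Any pairing would give these counts, since the fed and fasted shares did not overlap, so they add nothing to that. The paired test cannot go below p = 0.0625 with 5 pairs and 0.125 with 4, the values it gave (exact sign permutation, adjusted p = 0.278).

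**Figure D3:**
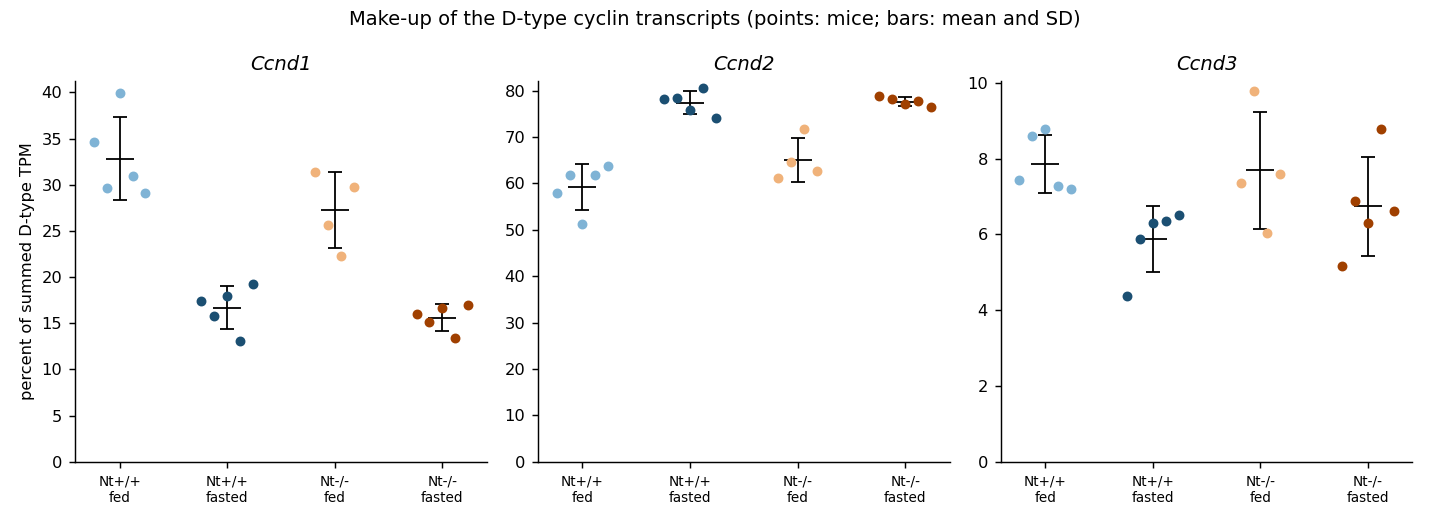
Share of each D-type cyclin in the summed TPM of Ccnd1, Ccnd2 and Ccnd3 (y axis, percent) in each mouse, by genotype and diet (x axis), with group mean and SD. The Ccnd1 share ran from 22.3% to 39.9% in fed and from 13.1% to 19.3% in fasted mice. The Ccnd2 share moved the other way, as it must where the other shares of the sum together are lower.

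Both E-type cyclins, which activate CDK2 as cells enter S phase, fell with fasting. Ccne1 was 10.7, 6.18, 7.73, 10.3 and 7.10 CPM in fed Nt+/+ mice and 6.03, 3.75, 6.79, 4.40 and 5.54 CPM in fasted ones, which overlap through 1 fed mouse (log2 fold change, -0.66 ± 0.18, adjusted p = 0.0119). The Nt-/- values were 8.94, 6.98, 10.4 and 7.67 CPM when fed and 5.50, 4.77, 4.57, 4.04 and 5.23 CPM when fasted, with no overlap (-0.81 ± 0.19, adjusted p = 0.00377). Ccne1 was the least abundant member. Ccne2 ranged from 9.91 to 12.6 CPM in fed and 5.30 to 9.52 CPM in fasted Nt+/+ mice (-0.67 ± 0.18, adjusted p = 0.0137). The Nt-/- mice ranged from 9.32 to 14.7 CPM when fed and 4.38 to 9.57 CPM when fasted (-0.89 ± 0.20, adjusted p = 0.00258), where 1 fasted mouse overlapped the fed range. The share of Ccne1 in the E-type TPM was 37.8% ± 3.52 in fed and 39.2% ± 6.95 in fasted Nt+/+ mice (exact permutation p = 0.698, adjusted p = 0.873), and 43.1% ± 7.99 and 39.7% ± 6.22 in Nt-/- mice (exact permutation p = 0.50, adjusted p = 0.714).

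Ccna2, the S and G2 cyclin, also fell. It was 145, 126, 119, 118 and 125 CPM in fed and 107, 96.0, 74.3, 72.8 and 108 CPM in fasted Nt+/+ mice (-0.47 ± 0.12, adjusted p = 0.00797). Ccna2 of Nt-/- mice was 118, 112, 123 and 122 CPM when fed and 83.9, 83.5, 63.1, 90.2 and 101 CPM when fasted (-0.49 ± 0.13, adjusted p = 0.00703). Neither pair of groups overlapped. Counted in CPM over the 10 members, fed and fasted Nt+/+ mice did not overlap for 4 (Ccnd1, Ccnd3, Ccne2 and Ccna2). Of all genes tested, 14.6% did not. In Nt-/- mice 5 did not (Ccnd1, Ccnd3, Ccne1, Ccna2 and Ccnb1), where 21.3% of all genes did not. The separation depended on the scale. In TPM, Ccne2 overlapped in Nt+/+ mice (lowest fed, 8.21; highest fasted, 8.28). Ccnd3 (11.4 and 11.8) and Ccnb1 (38.4 and 40.5) did so in Nt-/- mice.

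The mitotic cyclins Ccnb1 and Ccnb2 had smaller log2 fold changes than Ccna2 in both genotypes, a contrast that was not tested. Ccnb1 was 63.5, 60.0, 59.6, 54.4 and 53.4 CPM in fed and 57.8, 53.0, 42.6, 41.3 and 56.6 CPM in fasted Nt+/+ mice, and the log2 fold change of -0.21 ± 0.12 did not pass the test (95% interval, -0.45 to 0.02, adjusted p = 0.225). In Nt-/- crypts Ccnb1 was 57.3, 54.6, 57.2 and 49.4 CPM when fed and 43.1, 46.1, 28.2, 45.3 and 47.2 CPM when fasted, so that every fasted mouse was below every fed one and replicate 3 was the lowest by a wide gap (-0.38 ± 0.13, adjusted p = 0.0330). That call was lost without fed Nt-/- replicate 1 (adjusted p = 0.0797), 2 (0.0647) or 3 (0.0837), without fasted Nt-/- replicate 3 (-0.27; 0.0669), with only the groups compared in the fit (0.0587), and with replicate 5 of the fasted Nt+/+ group placed in the Nt-/- group (0.114). Ccnb2, the second mitotic B-type cyclin, ranged from 46.6 to 61.1 CPM in fed and 38.2 to 53.3 CPM in fasted Nt+/+ mice (-0.20 ± 0.11, adjusted p = 0.215), and from 45.2 to 51.4 and 29.6 to 46.7 CPM in Nt-/- mice (-0.27 ± 0.12, adjusted p = 0.10). Ccnb1 made up 53.0% ± 1.02 of the B-type TPM in fed and 54.2% ± 0.598 in fasted Nt+/+ mice (exact permutation p = 0.0714, adjusted p = 0.238), and 52.9% ± 2.31 and 52.0% ± 2.58 in Nt-/- mice (exact permutation p = 0.595, adjusted p = 0.794).

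Ccnf, which encodes an F-box protein that marks other proteins for destruction and does not activate a CDK, had a wide spread among the fasted mice. It ranged from 37.9 to 50.9 CPM in fed and from 23.8 to 56.0 CPM in fasted Nt+/+ mice (-0.13 ± 0.20, adjusted p = 0.686). Ccnf of Nt-/- mice ranged from 34.1 to 50.3 CPM when fed and from 17.3 to 38.0 CPM when fasted (-0.52 ± 0.21, adjusted p = 0.0824). With sex as a covariate Ccnf and Ccnb2 did pass in Nt-/- mice (-0.53, adjusted p = 0.0470; -0.35, adjusted p = 0.0282), and the mouse without a sex label was left out of that fit. Ccnf passed in Nt-/- mice without fasted Nt+/+ replicate 3 (-0.52, adjusted p = 0.0439), and Ccnb2 without fasted Nt-/- replicate 5 (-0.34, adjusted p = 0.0467).

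Across the 19 mice, Ccna2, Ccnb1, Ccnb2 and Ccnf deviated together from their group means. Pearson's r of the deviations of log2 CPM was 0.91 between Ccnb1 and Ccnb2, 0.88 between Ccnb1 and Ccnf, 0.83 between Ccnb2 and Ccnf, and 0.92, 0.88 and 0.76 between Ccna2 and Ccnb2, Ccnb1 and Ccnf. Ccnd1 deviated with Ccne1 (0.70) and Ccnd2 (0.63), and little with Ccnb1 (0.13) or Ccnd3 (-0.03). Ccng2 deviated against Ccnd1 (-0.71), Ccne1 (-0.69) and Ccnd2 (-0.67). These values describe 19 libraries that share group means, depth and the replicate numbers, and carry no test. The genes most like each cyclin, among 9870 genes with a mean of at least 3 log2 CPM, were Top2a, Smc2 and Kif11 for Ccna2 (r, 0.98, 0.97 and 0.96), Kif22, Kif4 and Kif2c for Ccnb1 (0.94, 0.93 and 0.93), Cdca3, Cdc20 and Mrpl49 for Ccnb2 (0.93, 0.91 and 0.91), and Zfp46, Zfp84 and Cdca2 for Ccnf (0.96, 0.94 and 0.94). Top2a encodes the topoisomerase that untangles replicated DNA, Smc2 a condensin subunit, and the Kif genes motor proteins. The most like Ccnd1 were Mllt1, Sumo3 and Mrps26 (0.91, 0.91 and 0.90), the most like Ccnd2 were Nelfa, Ado and Trim65 (0.86, 0.85 and 0.84), and the most like Ccnd3 were Cmtr1, Med28 and Ppargc1b (0.79, 0.79 and 0.76). Mrpl54, Tmem11 and Bysl (0.88, 0.86 and 0.85) were most like Ccne1, and Zfp770, Kif18a and Ints8 (0.92, 0.90 and 0.88) most like Ccne2. Clec2e, Clec2h and Apob (0.92, 0.92 and 0.91), the last encoding the scaffold protein of chylomicrons, were most like Ccng2.

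**Figure D4:**
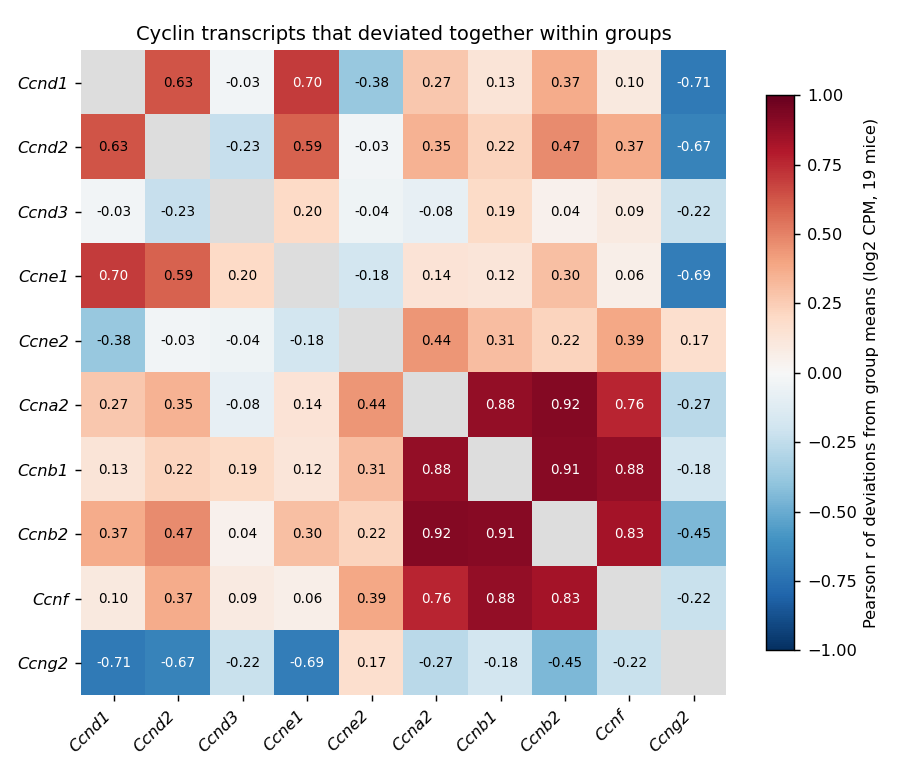
Pearson's r between each pair of cyclins (both axes) of the deviations of log2 CPM from the group means over 19 mice, from -1 (blue) to 1 (red). Ccna2, Ccnb1, Ccnb2 and Ccnf form a red square with r between 0.76 and 0.92, and Ccng2 is blue against Ccnd1, Ccnd2 and Ccne1.

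The promoters of Ccnb1, Ccnb2 and Ccnf are shown because these 3 genes deviated together. RefSeq promoter windows of GRCm38.p6 (250 bases before the start site and 50 from it on) were found for 6 of the 10 members, with 2 windows for Ccnd3; Ccnd1, Ccnd2, Ccne2 and Ccna2 were not matched. Capitals mark CCAAT, the box bound by NF-Y, and TTTGAA, the letters of the cell cycle homology region of many mitotic genes, both searched on both strands. Each run is on the gene's strand, 5′ to 3′, and holds the 250 bases before the start site and 30 from it on. Ccnb1 lies on the minus strand at chr13:100786457-100786736, Ccnb2 on the minus strand at chr9:70421525-70421804 and Ccnf on the minus strand at chr17:24251380-24251659.
Ccnb1: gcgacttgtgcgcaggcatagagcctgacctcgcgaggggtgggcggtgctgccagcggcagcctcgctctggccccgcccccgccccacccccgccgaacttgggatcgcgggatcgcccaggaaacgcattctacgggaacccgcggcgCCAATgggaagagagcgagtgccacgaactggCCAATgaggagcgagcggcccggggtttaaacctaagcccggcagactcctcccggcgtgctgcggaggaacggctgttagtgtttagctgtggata
Ccnb2: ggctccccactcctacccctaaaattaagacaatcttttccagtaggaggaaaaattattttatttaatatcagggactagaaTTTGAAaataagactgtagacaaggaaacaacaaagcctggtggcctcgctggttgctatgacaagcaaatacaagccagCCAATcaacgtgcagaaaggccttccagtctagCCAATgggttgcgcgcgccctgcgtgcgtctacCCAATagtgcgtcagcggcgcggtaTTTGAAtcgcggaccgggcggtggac
Ccnf: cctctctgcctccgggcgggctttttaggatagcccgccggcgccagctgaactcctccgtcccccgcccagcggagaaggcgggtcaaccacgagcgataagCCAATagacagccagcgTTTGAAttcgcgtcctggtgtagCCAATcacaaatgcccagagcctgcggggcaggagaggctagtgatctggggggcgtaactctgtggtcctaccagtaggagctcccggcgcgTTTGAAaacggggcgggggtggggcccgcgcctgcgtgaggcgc
Ccnb1 has 2 CCAAT boxes, Ccnb2 has 3 and Ccnf has 2. TTTGAA stands in 2 places in Ccnb2 and 2 in Ccnf, of which 1 in Ccnb2 lies at position 4 from the start site and 1 in Ccnf at position -14. CCAAT stands in 37.4% of the 32851 mouse promoter windows and TTTGAA in 17.9%, so neither is rare. Of the member windows, 4 of 7 held CCAAT, the fourth being 1 of Ccnd3, and 2 of 7 held TTTGAA. The E2F letters TTTCGCGC or TTTGGCGC, found in 0.813% of windows, were in none of the 7, and TGTTTAC, a FOXO factor motif in 3.65% of windows, was in 1 window of Ccnd3.

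Ccng2 encodes cyclin G2, an atypical cyclin that is linked to cell cycle arrest and is a known target of FOXO factors. In Nt+/+ mice it was 24.8, 48.3, 43.3, 46.2 and 49.1 CPM when fed and 30.9, 63.8, 43.0, 51.0 and 39.3 CPM when fasted, and the groups overlapped widely (log2 fold change, 0.11 ± 0.20; 95% interval, -0.28 to 0.49, adjusted p = 0.755). In Nt-/- mice it was 38.8, 38.5, 33.1 and 48.8 CPM when fed and 47.6, 87.7, 59.6, 75.3 and 61.2 CPM when fasted. Only replicate 1 of the fasted Nt-/- mice lay within the fed range, and the log2 fold change was 0.73 ± 0.21 (adjusted p = 0.0156), 1.66 times the fed level. The call was lost without fed Nt-/- replicate 3 (0.65, adjusted p = 0.0578). The fasting difference was 0.62 ± 0.29 log2 units larger in Nt-/- than in Nt+/+ mice, which did not pass edgeR's test over all genes (adjusted p = 1.00).

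Enterocyte markers rose in the fasting comparisons. Of all genes tested, 11.2% rose and 10.4% fell in Nt+/+ mice, and 12.5% rose and 12.6% fell in Nt-/- mice. The summed level of the 7 markers (Alpi, Fabp1, Fabp2, Apoa1, Apoa4, Sis and Lct) was between 3209.9 and 7004.5 CPM in fed and between 6884.7 and 14557.2 CPM in fasted Nt+/+ mice, and between 5105.6 and 7690.8 and between 12636.4 and 17075.8 CPM in Nt-/- mice. In Nt+/+ mice 5 of 7 rose and in Nt-/- mice 7 of 7, with median log2 fold changes of 1.39 and 1.75; Fabp1, a fatty acid binding protein, rose by 2.09 ± 0.23 (adjusted p = 3.8e-06) and 2.05 ± 0.25 (adjusted p = 9.4e-06). Within groups, the deviations of this sum followed those of Ccng2 (r, 0.81; 19 mice). They went against those of Ccnb2 (-0.66), Ccnd2 (-0.58), Ccna2 (-0.57), Ccnf (-0.57) and Ccnb1 (-0.53). The values were weaker for Ccnd1 (-0.43), Ccne1 (-0.37), Ccnd3 (-0.29) and Ccne2 (-0.17), which fell in both genotypes. By rank (Spearman's rho) Ccnd2 was much weaker, at -0.26. Ccnb2 was then -0.70, Ccnb1 -0.64, Ccna2 -0.61, Ccnf -0.59 and Ccng2 0.64. Ccnd1 was -0.38, Ccnd3 -0.32, Ccne1 -0.21 and Ccne2 -0.16. Of the 6 goblet cell markers 2 fell in Nt+/+ and 4 in Nt-/- mice, led by Agr2 (-1.0 ± 0.16, adjusted p = 0.000252; -1.59 ± 0.17, adjusted p = 2.9e-06). Of the 5 stem cell markers 1 fell in Nt+/+ (Olfm4, -0.63 ± 0.21, adjusted p = 0.0322) and 2 in Nt-/- mice (Olfm4 and Smoc2), while Lgr5 did not pass in either (0.29 and -0.02). Of 6 Paneth cell markers 0 were called in Nt+/+ mice (edgeR; 0 at an unadjusted p under 0.05 and 0 with DESeq2) and 1 fell in Nt-/- mice, and of 7 enteroendocrine markers 2 rose in Nt+/+ while 2 rose and 1 fell in Nt-/- mice. None of the 4 tuft cell, 10 immune, 6 tested stromal, 1 tested endothelial or 6 epithelial markers was called by edgeR in either genotype. At an unadjusted p under 0.05, 0 of them differed in Nt+/+ mice and 2 epithelial and 1 immune marker in Nt-/- mice, and DESeq2 called 0 and 1, the latter epithelial. The part of these markers in the cyclin differences was not tested.

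No cyclin passed the test between genotypes. In ad libitum–fed mice 0 of 10 members passed the test (edgeR; 0 at an unadjusted p under 0.05, and 0 with DESeq2), where 0.00559% of all genes passed, Nts alone, and 1.67% had an unadjusted p under 0.05. Ccnd1 had the largest difference in size, -0.35 ± 0.19 log2 units in Nt-/- relative to Nt+/+ mice (95% interval, -0.71 to 0.02; edgeR adjusted p = 1.00). In fasted mice 0 of 10 passed (0 with DESeq2) against 0.00559% of all genes, again Nts. Ccng2 was 66.3 ± 15.5 CPM in Nt-/- and 45.6 ± 12.5 CPM in Nt+/+ fasted mice (0.54 ± 0.20, edgeR adjusted p = 0.39). Ccnb1 was 42.0 ± 7.83 and 50.3 ± 7.80 CPM (-0.26 ± 0.12, edgeR adjusted p = 0.520). These 2 of 10 members had an unadjusted p under 0.05, where 9.14% of all genes did. Ccnd1 differed by -0.35 ± 0.18 (95% interval, -0.69 to 0.00, adjusted p = 0.584) and Ccnf by -0.40 ± 0.20 (adjusted p = 0.581). Fasted mice of the same title number deviated together in 5 of 5 pairs, and within these pairs Ccnd1 and Ccnd2 were lower and Ccng2 was higher in the Nt-/- mouse in 5 of 5. These are 3 of 10 members, where 13.4% of all genes had 1 sign in every pair. With the replicate block by title number, Ccnd1 differed by -0.36 (edgeR adjusted p = 0.152) and Ccng2 by 0.54 (edgeR adjusted p = 0.105). Among fed mice, whose title numbers do not pair them in every case, Ccnd1 and Ccnb1 were lower in the Nt-/- mouse of 4 of 4 title pairs. These are 2 of 10 members, where 9.61% of all genes had 1 sign. For Ccnb1 this depends on the pairing: by file number, Nt-/- replicate 3 pairs with Nt+/+ replicate 4 and was higher (57.2 against 54.4 CPM). The share of Ccnd1 in the D-type sum differed by -5.53 percentage points between the fed genotypes (exact permutation p = 0.135, adjusted p = 0.335) and by -1.07 between the fasted ones (exact permutation p = 0.397, adjusted p = 0.611).

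The effects of fasting did not differ detectably between the genotypes for any cyclin. Of the 10 members 0 passed the test of that difference (edgeR; 0 with DESeq2), where 0% of all genes passed, and 1 member, Ccng2, had an unadjusted p under 0.05, where 2.71% of all genes did. For Ccnd1 the difference of the effects was 0.00 ± 0.24 log2 units (95% interval, -0.47 to 0.47), and for Ccnd2 it was -0.22 ± 0.20 (95% interval, -0.61 to 0.17). Both fasting comparisons use separate mice. The fasting and the genotype comparisons share groups.

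Other genes of the cell cycle machinery were read from lists. Of all genes tested, 10.4% fell and 11.2% rose in Nt+/+ mice, and 12.6% fell and 12.5% rose in Nt-/- mice, the shares to set beside each list. The 8 proliferation markers moved with the cyclins: 6 fell in Nt+/+ and 8 in Nt-/- mice, among them Rrm2, a subunit of ribonucleotide reductase (-0.79 ± 0.12, adjusted p = 7.66e-05; -0.98 ± 0.12, adjusted p = 1.31e-05), Top2a (-0.62 ± 0.11; -0.78 ± 0.11) and Mki67 (-0.46 ± 0.09; -0.59 ± 0.09). Their median log2 fold change was -0.40 in Nt+/+ and -0.55 in Nt-/- mice. Fewer calls were made among the kinases that cyclins bind, a contrast between lists that was not tested. Of 21 CDKs and subunits, 1 fell in Nt+/+ mice, the small CDK-binding subunit Cks2 (-0.50 ± 0.14, adjusted p = 0.0133), and 3 in Nt-/- mice, Cdk2 (-0.30 ± 0.10, adjusted p = 0.0317), Cdk5 (-0.32 ± 0.11, adjusted p = 0.0445) and Cks2 (-0.41 ± 0.15, adjusted p = 0.0459), with median log2 fold changes of -0.05 and -0.12, where 10.4% and 12.6% of all genes fell. Cdk1 and Cdk4 did not pass in either genotype (Cdk1, -0.05 and -0.25; Cdk4, -0.14 and -0.29).

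Of the 5 phosphatases and kinases that switch CDK1 and CDK2, 0 were called in Nt+/+ mice (edgeR; 0 at an unadjusted p under 0.05 and 0 with DESeq2), and Pkmyt1 (-0.46 ± 0.10, adjusted p = 0.00279) and Cdc25b (-0.48 ± 0.15, adjusted p = 0.0261) fell in Nt-/- mice. Of 24 tested genes of cyclin degradation, 8 fell in Nt+/+ mice, where 10.4% of all genes fell. They were led by Anapc1 (-0.56 ± 0.06, adjusted p = 9.69e-07), Fbxo5 (-0.60 ± 0.10, adjusted p = 0.000394) and Cdc16 (-0.36 ± 0.08, adjusted p = 0.00267). In Nt-/- mice 7 fell and 1 rose, where 12.6% of all genes fell and 12.5% rose. The leading genes were Anapc1 (-0.51 ± 0.06), Fbxo5 (-0.74 ± 0.11) and Ube2s (-0.72 ± 0.15). Anapc1 and Cdc16 encode subunits of the anaphase-promoting complex, which marks mitotic cyclins for destruction, and Fbxo5 an inhibitor of that complex, so the genes that fell have opposite roles.

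Of 15 tested cyclins outside the 10, 3 fell in Nt+/+ mice, where 10.4% of all genes fell. They were Ccng1 (-0.36 ± 0.09, adjusted p = 0.00579), Ccnc (-0.42 ± 0.11, adjusted p = 0.00952) and Ccnh (-0.40 ± 0.11, adjusted p = 0.0166). In Nt-/- mice 3 fell and 3 rose: Ccng1 (-0.44 ± 0.09, adjusted p = 0.00163), a relative of Ccng2 and a p53 target, fell, and Ccny (0.28 ± 0.07, adjusted p = 0.00657) and Ccni (0.32 ± 0.09, adjusted p = 0.0129) rose. Over all genes in Nt-/- mice, 12.6% fell and 12.5% rose. Of 13 FOXO factors and targets, 4 rose and 2 fell in Nt+/+ mice, where 11.2% of all genes rose and 10.4% fell. In Nt-/- mice 7 of the 13 rose and 2 fell. Pdk4, the kinase that shuts off pyruvate dehydrogenase, rose by 4.97 ± 0.46 (adjusted p = 4.05e-07) and 6.36 ± 0.54 (adjusted p = 1.24e-07), and Cited2 by 0.71 ± 0.12 and 1.03 ± 0.13. Sesn1 fell in Nt+/+ mice (-0.49 ± 0.10, adjusted p = 0.00170), where Nt-/- mice gave -0.24 ± 0.11 (adjusted p = 0.115). Insr, the insulin receptor gene, rose in both genotypes (0.24 ± 0.08, adjusted p = 0.0269; 0.38 ± 0.08, adjusted p = 0.00221).

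Of 14 tested genes of the MAPK and Wnt pathways, some of them targets of these pathways, 3 rose in Nt+/+ mice, where 11.2% of all genes rose. They were Tcf7 (0.70 ± 0.11, adjusted p = 0.000130), Lef1 (1.10 ± 0.30, adjusted p = 0.0119) and Spry2 (0.29 ± 0.10, adjusted p = 0.0433). Lef1 was scarce, at 0.761 ± 0.234 CPM (SD) in fed and 1.65 ± 0.198 CPM in fasted Nt+/+ mice. Of the 14 genes 3 rose and 3 fell in Nt-/- mice, where 12.5% of all genes rose and 12.6% fell. These were led by Etv5 (-0.91 ± 0.20, adjusted p = 0.00261), Tcf7 (0.46 ± 0.11, adjusted p = 0.00560) and Dusp6 (-0.68 ± 0.19, adjusted p = 0.0139). Junb (0.63 ± 0.18, adjusted p = 0.0144) and Spry2 (0.37 ± 0.11, adjusted p = 0.0145) also rose in Nt-/- mice. Tcf7 and Lef1 encode Wnt pathway transcription factors, and Etv5 and Dusp6 are transcribed in response to ERK signaling. The called genes of this list moved both ways in Nt-/- mice, and ERK signaling itself was not tested. Of these lists, none had a member called between the genotypes in either diet or in the difference of the fasting effects (edgeR). At an unadjusted p under 0.05, 0 members of any list differed in fed mice, where 1.67% of all genes did. In fasted mice 6 of the 8 proliferation markers did, where 9.14% of all genes did. All were lower in Nt-/- mice, with a median log2 fold change of -0.24 over the 8. Of the other lists, 1 of 21 CDKs and subunits, 1 of 14 MAPK and Wnt genes and 3 of 24 degradation genes did. So did 2 of 15 other cyclins, 2 of 5 phosphatases and kinases and 3 of 13 FOXO factors and targets. DESeq2 called 1 of the other cyclins and 1 of the phosphatases and kinases in fasted mice and 0 in the rest.

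Some reads of the members could belong to other loci. The pseudogenes Ccnb1-ps, Ccnb2-ps and Ccnd3-ps held at most 0.409, 1.24 and 0.197 CPM in any mouse, small beside their parent genes, and RSEM divides shared reads by its model. On the opposite strand, Ints8 (22.8 to 46.5 CPM) overlaps Ccne2, Exosc9 (31.6 to 44.7 CPM) overlaps Ccna2, LTO1 (16.3 to 20.9 CPM) overlaps Ccnd1 and Bysl (11.1 to 22.9 CPM) overlaps Ccnd3. The strand setting of the counting is not given in the sources used here, so reads where these genes overlap could not be assigned with certainty, and Ints8 was also among the 3 genes most like Ccne2.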

How the data were processed

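Crypt RNA of 19 mice was sequenced single-end after ribosomal RNA depletion. The authors trimmed reads with Trimmomatic 0.39 (per the submitters' processing notes), quantified them with RSEM on Ensembl transcripts of GRCm38, and deposited per gene an expected count (unnormalized, with reads that fit several genes apportioned by a model) and TPM, scaled by effective length so that each mouse has the same total. The RSEM version and strand setting are not given in the sources used here.

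Expected counts were rounded and normalized by TMM in edgeR (4.0.16, R 4.3.3). The 17875 genes that passed filterByExpr were tested with the quasi-likelihood test (1 coefficient per group, 15 residual degrees of freedom) and Benjamini-Hochberg adjustment over all genes, and the test was checked on simulated counts. CPM uses TMM library sizes. log2 CPM, computed here with a prior count of 2, entered only the deviations. Standard errors follow from log2 fold change and F, and 95% intervals are 1.96 SE. Shares were taken from deposited TPM and tested by exact permutation. At 9059418 to 35068669 counts, the lowest member, Ccne1, is limited most by counting error.

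Same-numbered mice by title deviated together in 5 of 5 pairs (r over 0.1) of Nt+/+ fed and fasted mice and of fasted Nt+/+ and Nt-/- mice, but in 2 of 4 of the other comparisons' pairs, and by the number in the file names in every pair of the 4 comparisons. The sources do not say what the numbers mark, nor that mice of a number came from separate cages or runs. No 2 libraries held identical counts.

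The 10 cyclins and all gene lists were chosen with earlier results of these data known. Named genes are the members, Nts, the 3 genes of smallest p in each pathway list and comparison described, and the 3 genes most like each member. Cdk1, Cdk4, Junb, Lgr5, Smoc2, Spry2 in Nt-/- mice and the leading markers were named after their values were seen. Signs within same-numbered pairs of the genotypes were counted after the values were seen. FPKM was not used. Alternatives were no low-count filter, a floor of 10 counts in all mice, DESeq2 (1.42.0), upper quartile scaling, blocks for either number, sex, regrouping of fasted Nt+/+ replicate 5, only the groups compared, each mouse left out, and, for shares, CPM and paired sign permutation.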

Additional observations from a re-analysis of the deposited data

Results flagged for a closer look

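Of 60 sets of values checked (10 cyclins and 5 shares in 4 groups), 5 held a mouse far from the rest of its group by Dixon's criterion, where chance flags about 1 in 20. Ccnd2 was 819 CPM in replicate 1 of the fasted Nt+/+ mice, with the others between 576 and 630 CPM. Ccnd2 was likewise 817 CPM in replicate 1 of the fasted Nt-/- mice, with the others between 524 and 547 CPM. Replicate 1 of the fed Nt+/+ mice, the library with 11.5% of its counts on 1 gene, had 145 CPM of Ccna2, with the others between 118 and 126 CPM, and 24.8 CPM of Ccng2, with the others between 43.3 and 49.1 CPM. Ccnb1 was 28.2 CPM in replicate 3 of the fasted Nt-/- mice, with the others between 43.1 and 47.2 CPM.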

How the results depend on the processing

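The falls of Ccnd1, Ccnd3, Ccne1, Ccne2 and Ccna2 kept direction and call in both genotypes under all 28 alternatives. The count of cyclins called was 5 to 6 in Nt+/+ and 5 to 9 in Nt-/- mice, and 0 between genotypes and in the difference of the fasting effects. With the replicate block of the titles it was 6 and 9, Ccnb2 (-0.30; adjusted p = 0.0378) and Ccnf (-0.54; adjusted p = 0.0486) being added in Nt-/- mice, where those numbers do not pair the mice in every case; with the block of the file names it was 6 and 7. Genes called between the fed genotypes numbered 1, 0 with at least 10 counts in every mouse, 4 with DESeq2, and 0 with fasted Nt+/+ replicate 5 regrouped. Between the fasted genotypes they numbered 1, and 0, 97 and 0 under these settings, with 1 to 4 when each mouse was left out (4 without fasted Nt-/- replicate 1). DESeq2 called 1 gene in the difference of the fasting effects. The filter of 10 counts removes Nts itself; the other causes were not tested.

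Shares past the threshold numbered 5, 0 to 5 when each mouse was left out, and 0 in the paired sign permutation with the replicate block, which cannot pass. Values that changed sign were small. Leaving out each mouse, Ccng2 in Nt+/+ mice ran from -0.05 (without fasted Nt+/+ replicate 2) to 0.22, Ccnf from -0.28 to 0.01, the difference of the fasting effects of Ccnd1 from -0.14 to 0.11, and the Ccne1 share in Nt+/+ mice from -0.774 to 3.35 points. The Ccnd1 difference of effects was 0.00 with at least 10 counts, 0.01 with DESeq2 and 0.14 with replicate 5 regrouped, where the Ccnd1 share differed by 0.185 points between fasted genotypes. From CPM, the Ccne1 share in Nt-/- mice differed by 1.78 points and the Ccnb1 share in Nt+/+ mice by -0.30. Depth limits Ccne1, at 3.75 to 10.7 CPM, most.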
